A study of Mus musculus with 17 samples.

Results

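Glycolysis and hypoxia response genes were followed as a set of 35 named genes in mouse prostate and prostate tumours. They were listed by symbol, with earlier results of these data known, and no threshold on their values was used. They were looked up by symbol, Entrez or Ensembl number. All 35 were found among the 13945 genes kept from the genotype files and among the 39179 kept from the files of an inducible model, and all 35 passed the filter on low values in each comparison. They fall into 24 genes on the glycolysis side (3 carriers of glucose and lactate, 17 glycolytic enzymes and 4 switches of flux) and 11 on the hypoxia side (4 HIF alpha subunits and prolyl hydroxylases and 7 other HIF-type targets).

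Glycolysis splits glucose into pyruvate in the cytosol, and lactate dehydrogenase turns the pyruvate into lactate, which leaves the cell through monocarboxylate carriers. HIF, a transcription factor made of an oxygen-labile alpha subunit and a stable beta subunit, raises the genes of this route together with genes of blood vessel growth and acid handling. Prolyl hydroxylases mark the alpha subunit for breakdown when oxygen is present, and the gene of the hydroxylase EGLN3 is itself a HIF target. Normal prostate epithelium is known for secreting citrate, and a shift towards glycolysis is known mainly from advanced prostate tumours.

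RNA was sequenced from frozen tissue of C57BL/6 mice. Wild-type prostate (12 months, libraries 1 to 3), tumours with Ctnnb1pc(ex3)Δ/+ (about 12 months, libraries 13 to 15, here the Ctnnb1 group) and tumours in which a further engineered change was added to it (6 to 8 months, libraries 10 to 12, here the combined group) had 3 libraries each. Deletion of exon 3 of Ctnnb1 leaves a stable beta-catenin. An inducible model of the combined genotype, in which a tamoxifen-activated Cre replaces the constitutive deletion, gave 2 libraries after mock treatment and 3 after androgen deprivation (ADT), all at about 15 months. Age and genotype therefore cannot be told apart in the combined group. The labels do not say that each library came from a separate animal, so p-values measure the spread between these libraries, which may be technical. In bulk tissue, fewer cells of a type and less RNA per cell cannot be told apart.

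The values were rounded counts that had been scaled per library, so they carry no sequencing depth. Their totals were 45675083 to 47248750 in wild type and 32455483 to 35120175 in the tumours of the genotype files, and the 10 highest genes held 24.7% to 28.0% of the kept total in wild type but 5.26% to 6.69% in the tumours. Epithelial markers summed to 57722 to 67720 in wild type, 60847 to 86995 in the Ctnnb1 group and 76291 to 105588 in the combined group. Every combined library was thus above every wild-type library in this sum. The 5 prostate luminal markers summed to 1531905 to 1749875 in wild type. In the Ctnnb1 group their sums were 135535 to 248628, and in the combined group 26695 to 114766. The files of the inducible model are a separate set, compared only among themselves. There the luminal sums were 5307 and 8521 in mock and 163 to 333 in ADT, where 1 to 3 of the 5 stood at 0. Setting all library totals equal instead brought the median change of all genes to 0.49 in the Ctnnb1 group and 0.50 in the combined group on the log2 scale, so each change below is relative to the deposited scale.

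HIF binds DNA at a short core that can read ACGTG or GCGTG. Promoter windows of 250 bases before to 50 after a transcript start were listed by RefSeq (GRCm38.p6) for 33 of the 35 genes. Either form of the core, on either strand, was present in 38 of their 47 windows (80.9%) and in 43.8% of the 32851 windows of all genes. Part of these matches overlap the E-box CACGTG, which stood in 12.8% of the members' windows and 7.15% of all. A match is a run of letters and not a measured binding site, and the base composition of the windows was not tested. The stretches below are the 250 bases before the RefSeq start, 5′ to 3′ on the strand of the gene, with the core in capitals. They come from the 4 genes with the largest rise in the combined group among those with a single listed promoter. Pfkfb4, which fell in both tumour groups, is also given.
Car9, chr4:43506776-43507025, plus strand: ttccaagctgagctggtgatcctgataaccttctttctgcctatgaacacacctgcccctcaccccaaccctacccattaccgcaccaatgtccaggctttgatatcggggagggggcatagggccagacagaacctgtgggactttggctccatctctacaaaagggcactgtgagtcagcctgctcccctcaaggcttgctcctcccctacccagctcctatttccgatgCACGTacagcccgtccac
Slc16a3, chr11:120948817-120949066, plus strand: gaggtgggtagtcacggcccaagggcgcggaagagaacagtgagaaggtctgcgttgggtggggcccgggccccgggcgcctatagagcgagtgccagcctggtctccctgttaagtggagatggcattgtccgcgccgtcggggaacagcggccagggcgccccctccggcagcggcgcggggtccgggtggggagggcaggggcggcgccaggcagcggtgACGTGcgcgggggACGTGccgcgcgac
Egln3, chr12:54203875-54204124, minus strand: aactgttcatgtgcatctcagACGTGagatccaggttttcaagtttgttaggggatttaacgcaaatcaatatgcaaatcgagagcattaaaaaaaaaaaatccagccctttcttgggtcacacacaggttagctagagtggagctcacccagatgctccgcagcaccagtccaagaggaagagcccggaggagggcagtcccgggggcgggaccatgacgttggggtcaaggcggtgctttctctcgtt
Ankrd37, chr8:45999851-46000100, minus strand: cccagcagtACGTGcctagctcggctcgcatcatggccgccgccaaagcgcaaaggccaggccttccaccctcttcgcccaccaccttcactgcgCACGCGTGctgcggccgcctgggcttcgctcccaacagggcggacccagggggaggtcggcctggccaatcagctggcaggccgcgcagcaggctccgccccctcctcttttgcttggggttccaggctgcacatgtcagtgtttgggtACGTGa
Pfkfb4, chr9:108991652-108991901, plus strand: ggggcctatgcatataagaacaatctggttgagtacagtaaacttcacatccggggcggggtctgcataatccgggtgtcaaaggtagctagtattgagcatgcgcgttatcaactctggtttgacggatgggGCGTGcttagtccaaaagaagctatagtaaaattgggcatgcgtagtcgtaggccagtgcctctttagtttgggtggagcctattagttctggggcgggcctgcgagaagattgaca
In Car9 the core began 18 bases before the RefSeq start, and in Slc16a3 the 2 cores began 27 and 14 bases before it. GENCODE, the source of the gene spans given below, starts Car9, Slc16a3, Ankrd37 and Pfkfb4 further upstream. The stretches of these genes thus lie partly or wholly within their GENCODE spans. Egln3 had a core 229 bases before the RefSeq start, Ankrd37 had 4 matches (at 241, 155, 152 and 6 bases) and Pfkfb4 had 1 at 117 bases. The Ankrd37 matches at 155 and 152 overlap, as the core read on opposite strands of a single stretch. A core was thus present before the RefSeq start both of genes that rose and of a gene that fell.

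In the combined group, most of the set stood above wild type. By limma with Benjamini-Hochberg adjustment over all genes, 25 of the 35 genes were called higher, against 28.3% of all genes tested, and 2 were called lower, against 29.5% (27 in either direction, against 57.8%). The libraries did not overlap with wild type for 25 higher genes, against 32.1% of all genes, and for 3 lower, against 33.9% (66.1% in either direction). The median change of the 35 genes was 1.22 on the log2 scale, beside -0.01 for all genes. With equal totals the counts were 29 higher (Aldoa, Aldoc, Eno2 and Egln1 in addition) and 1 lower (Pfkfb4), while among all genes the split moved from 3946 higher and 4117 lower to 7967 and 1773.

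The Ctnnb1 group was mixed. There 11 genes were called higher, against 28.9% of all genes, and 7 lower, against 29.6% (18 in either direction, against 58.5%), with a median change of 0.10 beside 0.00 for all genes. No overlap with wild type was seen for 14 higher genes, against 35.9% of all genes, and for 10 lower, against 35.5% (71.5% in either direction). The hypoxia side had 5 called higher and 1 lower of 11, and the glycolysis side 6 and 6 of 24. Equal totals gave 20 higher (Gpi1, Tpi1, Gapdh, Ldha, Pdk1, Slc16a1, Slc16a3, Hif1a and P4ha1 in addition) and 3 lower (Pfkm, Pfkfb3 and Pfkfb4), and moved all genes from 4030 higher and 4121 lower to 7781 and 2094. Without library 15 the lower calls fell to 3, and without wild-type library 2 or 3 to 4. Both comparisons share the wild-type libraries, and the difference between the tumour groups was not tested.

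**Figure D1:**
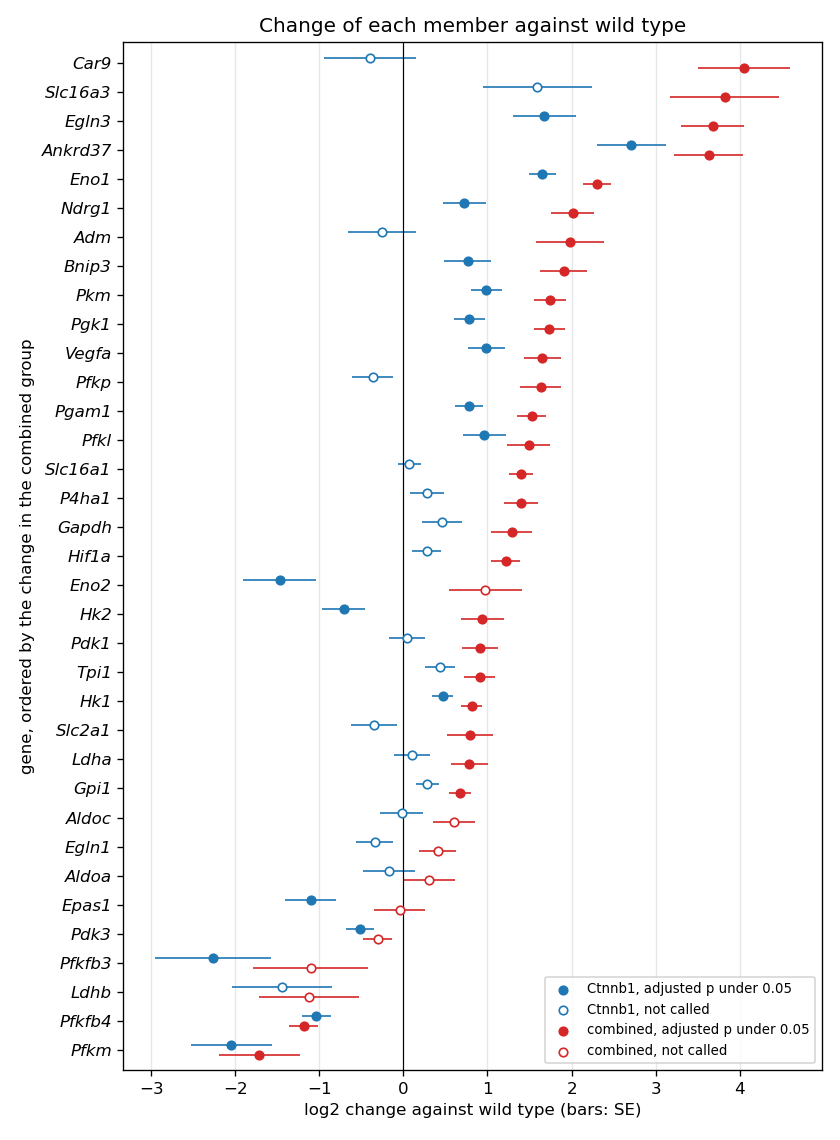
Change of each of the 35 genes against wild type on the log2 scale (x axis, bars are SE) in the Ctnnb1 group and the combined group, with 3 libraries per group and genes ordered by the change in the combined group. Filled points passed an adjusted p under 0.05, which 25 higher and 2 lower genes did in the combined group and 11 higher and 7 lower in the Ctnnb1 group.

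Among the carriers, the lactate exporter Slc16a3 (also called MCT4) had the largest rise. It stood at 576, 187 and 108 in wild type, 1022, 432 and 729 across Ctnnb1 tumours and 1664, 4121 and 4878 in combined tumours. Every combined library was above every wild-type library, and the Ctnnb1 libraries overlapped them. The rise in the combined group was 14.1-fold (log2 3.82, SE 0.65, adjusted p = 0.00135), and without wild-type library 1 it was 4.49 on the log2 scale. In the Ctnnb1 group the change of 1.59 was not called (adjusted p = 0.0627), and it was called without wild-type library 1 (2.26, adjusted p = 0.0119). Slc16a1, which moves lactate in either direction, stood at 325, 313 and 333 in wild type, 328, 288 and 415 across Ctnnb1 tumours and 798, 902 and 863 in combined tumours. It rose 2.63-fold in the combined group (SE 0.14 on the log2 scale, adjusted p = 0.000104), with libraries closely spaced, and in the Ctnnb1 group its change of 0.07 was not called, or 0.55 and called with equal totals. The glucose carrier Slc2a1 stood at 2188, 1898 and 2375 in wild type, 1678, 1769 and 1616 across Ctnnb1 tumours and 2280, 4110 and 5503 in combined tumours. Its combined group overlapped wild type through library 10, and the call (0.80, adjusted p = 0.0345) was lost when any library but combined 10 was left out, with adjusted p of 0.0562 to 0.103.

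At the entry of the pathway, the hexokinases parted. Hk1, the widely expressed form, stood at 2813, 2785 and 2902 in wild type, 4055, 3751 and 3945 across Ctnnb1 tumours and 3978, 5472 and 5630 in combined tumours, and was called higher in both (0.47 and 0.81). Hk2, the form typical of muscle and of many tumours, stood at 1950, 1326 and 1250 in wild type, 1070, 800 and 863 across Ctnnb1 tumours and 2139, 2625 and 4069 in combined tumours. All Ctnnb1 libraries were thus below wild type and all combined libraries above it. Hk2 rose by 0.94 in the combined group (SE 0.26, adjusted p = 0.0134). Its fall by 0.71 in the Ctnnb1 group (adjusted p = 0.0415) was not called with equal totals (-0.22, adjusted p = 0.455) or without wild-type library 1 or 2 or Ctnnb1 library 14 or 15 (adjusted p of 0.0632 to 0.138). Gpi1, the next enzyme, stood at 11866, 11040 and 10250 in wild type, 13697, 13949 and 12744 across Ctnnb1 tumours and 14120, 18737 and 20554 in combined tumours, where it was called (0.67, adjusted p = 0.00315).

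The 3 genes of phosphofructokinase, the main point of control of the pathway, differed. Pfkl, the liver type, stood at 2100, 1747 and 2444 in wild type, 3936, 4919 and 3415 across Ctnnb1 tumours and 3960, 6359 and 7935 in combined tumours. It rose in both, by 0.96 and 1.49. Pfkp, the platelet type, stood at 613, 714 and 860 in wild type, 590, 480 and 622 across Ctnnb1 tumours and 1501, 2763 and 2716 in combined tumours, and rose in the combined group (1.63, adjusted p = 0.000721), with -0.36 in the Ctnnb1 group (adjusted p = 0.226, and 0.12 with equal totals). Pfkm, the muscle type, stood at 8380, 3199 and 1884 in wild type, 641, 923 and 1211 across Ctnnb1 tumours and 1026, 1186 and 1172 in combined tumours. It fell in both (-2.05 and -1.71), the latter not called with equal totals (-1.20, adjusted p = 0.0507). Without wild-type library 1 the changes were -1.45 and -1.12, both called.

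The wild-type values of Pfkm, like those of Hk2 and Slc16a3, ran in the same order as skeletal muscle markers. So did those of Gpi1, Aldoa, Tpi1, Gapdh, Pgk1, Pkm, Ldha, Ldhb, Egln1 and Egln3, and an order of 3 libraries is easily shared. The 10 markers summed to 170590, 48964 and 10440 in wild-type libraries 1, 2 and 3, to 153, 81 and 11442 in the Ctnnb1 group, with 4, 4 and 0 of the 10 at 0, and to 1468, 225 and 253 in the combined group, with 0, 0 and 4 at 0. Ckm and Acta1, defining genes of skeletal muscle, stood at 21417 and 38375 in wild-type library 1 and at 1 and 39 in combined library 12. Aldoa, the aldolase shared by muscle and most other tissues, stood at 39779, 21237 and 16349 in wild type, 22384, 21159 and 20378 across Ctnnb1 tumours and 22712, 31841 and 35902 in combined tumours. Its change of 0.30 in the combined group was not called (adjusted p = 0.418), and without wild-type library 1 it was 0.67 and called (adjusted p = 0.0314). Without that library Gapdh (0.69, adjusted p = 0.0341) and Tpi1 (0.56, adjusted p = 0.0464) were called higher in the Ctnnb1 group as well. The muscle enzymes Eno3 (10446, 2984 and 674 in wild type) and Pgam2 (2477, 607 and 83), named after their values were seen, showed the same order. In the Ctnnb1 group, Pfkm was highest in library 15, which had the highest muscle sum, but Hk2 and Slc16a3 were highest in library 13. The part of muscle tissue in these results was not tested. Smooth muscle markers were also far apart, at 144728 to 185002 in wild type, 1832 to 3542 in the Ctnnb1 group and 5991 to 19978 in the combined group.

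**Figure D2:**
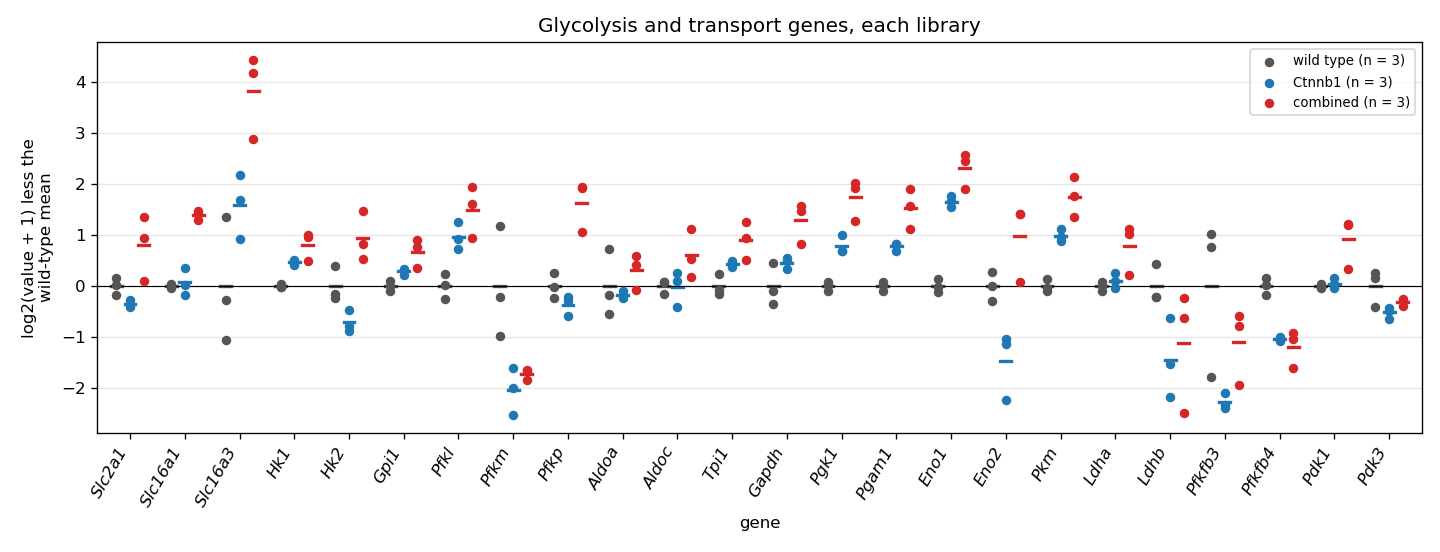
Carriers, glycolytic enzymes and switches of flux in each library of the genotype files, as log2(value + 1) less the wild-type mean of the gene (y axis). Points are libraries and short bars are group means. Wild-type points spread widely for Slc16a3, Pfkm and Pfkfb3, and combined points lie above wild type for Eno1, Pkm and Pgk1.

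Of the enzymes of the ATP-yielding stretch of the pathway, Pgk1, Pgam1, Eno1 and Pkm rose in both tumour groups. Pgk1, which makes the first ATP of this stretch, stood at 8138, 7809 and 7180 in wild type, 15395, 12296 and 12323 across Ctnnb1 tumours and 18675, 29092 and 30985 in combined tumours. Pgam1, the mutase that follows, stood at 2180, 2438 and 2357, then 4123, 4115 and 3730, then 5041, 6849 and 8682. Both rose in both tumour groups, by 0.78 and 1.73 for Pgk1 and by 0.78 and 1.53 for Pgam1. Eno1, the common enolase (chr4:150236721-150248879, plus strand, GRCm38), stood at 3720, 3996 and 4443 in wild type, 13627, 11739 and 12823 across Ctnnb1 tumours and 15159, 23928 and 21971 in combined tumours. It had the largest rise of all 17 enzymes in either comparison, 3.14-fold (log2 1.65, SE 0.16, adjusted p = 0.000104) and 4.94-fold (log2 2.30, SE 0.16, adjusted p = 2.4e-05), and the tumour libraries were far above wild type. Pkm, which makes pyruvate and the last ATP, stood at 17724, 15804 and 15233 in wild type, 35355, 29873 and 31388 across Ctnnb1 tumours and 41150, 54909 and 70954 in combined tumours. It rose by 0.99 (adjusted p = 0.0023) and 1.74 (adjusted p = 0.000134). These gene totals do not separate the splice forms of Pkm.

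The triose enzymes and lactate dehydrogenases follow. Tpi1 stood at 11818, 9449 and 8938 in wild type, 13941, 13736 and 12961 across Ctnnb1 tumours and 14292, 19196 and 23887 in combined tumours. Gapdh stood at 7711, 5230 and 4388, then 7900, 7044 and 8238, then 9985, 15520 and 16636. Both were called in the combined group (0.90 and 1.29). Ldha, which makes lactate, stood at 20716, 19639 and 18288 in wild type, 23341, 18880 and 20837 across Ctnnb1 tumours and 22792, 39489 and 42280 in combined tumours, and rose by 0.78 there (adjusted p = 0.0146), with library 10 close to wild type. Ldhb, the form that favours the reverse reaction, was below wild type in every tumour library (2017 to 3178 against 521 to 1526 and 418 to 1995) but its changes of -1.44 and -1.12 were not called (adjusted p = 0.0659 and 0.138), and in the Ctnnb1 group it was called without library 14 (-1.85, adjusted p = 0.0393). Eno2, the enolase of nerve and neuroendocrine cells, stood at 312, 383 and 464 in wild type, 174, 185 and 80 across Ctnnb1 tumours and 405, 1018 and 1018 in combined tumours. Its fall by 1.47 in the Ctnnb1 group (adjusted p = 0.0189) was not called with equal totals (-0.98, adjusted p = 0.0638) or without wild-type library 2 or 3 or Ctnnb1 library 15 (adjusted p of 0.0506 to 0.0623). In the combined group Eno2 (0.97) and Aldoc (0.60), the brain aldolase, were not called, and both were without library 10 (1.41, adjusted p = 0.0142, and 0.82, adjusted p = 0.0247).

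Per kilobase of exon, Aldoa, Ldha and Pkm had the highest mean levels in all 3 groups. In wild type these were Aldoa (14138 ± 6776, SD, n = 3), whose spread reached Ldha, then Ldha (10315 ± 642) and Pkm (6254 ± 502). In the Ctnnb1 group Pkm (12391 ± 1089), Aldoa (11682 ± 554) and Ldha (11092 ± 1180) lay within their spread of each other. In the combined group the order was Pkm (21420 ± 5739), Ldha (18392 ± 5561), Aldoa (16530 ± 3704) and Pgk1 (14384 ± 3632), and these neighbours overlapped too.

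Of the 4 switches of flux, 3 were called lower in the Ctnnb1 group, where 29.6% of all genes were. In the combined group 1 was called higher and 1 lower, beside 28.3% and 29.5% of all genes. Pfkfb4, a bifunctional enzyme that sets the level of an activator of phosphofructokinase, stood at 2757, 3029 and 2394 in wild type, 1359, 1285 and 1324 across Ctnnb1 tumours and 1329, 891 and 1434 in combined tumours. It fell by 1.04 (adjusted p = 0.00119) and by 1.19 (adjusted p = 0.000605), with no overlap in either, and both calls also held with equal totals (-0.55 and -0.67). Pfkfb3, its more strongly kinase-type relative, stood at 13464, 1934 and 11360 in wild type, 1568, 1334 and 1278 across Ctnnb1 tumours and 1748, 3850 and 4417 in combined tumours. Wild-type library 2 was far below the other 2. The fall by 2.26 in the Ctnnb1 group (adjusted p = 0.0215) was not called without wild-type library 1 or 3 or Ctnnb1 library 14 or 15 (adjusted p of 0.0524 to 0.0754), and was -3.15 without wild-type library 2. In the combined group it was called when wild-type library 2 was left out (adjusted p = 0.00406) and in no other setting tried.

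Pyruvate dehydrogenase kinases hold back the use of pyruvate by pyruvate dehydrogenase in the mitochondria. Pdk1, a known HIF target, stood at 1375, 1302 and 1322 in wild type, 1364, 1481 and 1289 across Ctnnb1 tumours and 1672, 3054 and 3079 in combined tumours, where it rose by 0.91 (adjusted p = 0.00665). Pdk3 stood at 520, 824 and 772 in wild type, 515, 444 and 493 across Ctnnb1 tumours and 527, 580 and 570 in combined tumours. Its fall by 0.52 in the Ctnnb1 group (adjusted p = 0.0293) was near 0 with equal totals (-0.03, adjusted p = 0.878) and was not called without wild-type library 2 or 3 or Ctnnb1 library 14 or 15 (adjusted p of 0.062 to 0.104). Of the settings tried, Pdk3 was called lower in the combined group when wild-type library 1 was left out (-0.51, adjusted p = 0.00836).

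On the hypoxia side, Hif1a, the alpha subunit found in most cells, stood at 2572, 2731 and 2902 in wild type, 3192, 3097 and 3656 across Ctnnb1 tumours and 5919, 8529 and 5093 in combined tumours. It rose by 1.22 in the combined group (SE 0.17, adjusted p = 0.000533). In the Ctnnb1 group every library was above wild type but the change of 0.28 was not called (adjusted p = 0.195). HIF1A protein is controlled mainly by its stability, so these transcript levels are not levels of active HIF. Epas1, the alpha subunit prominent in endothelium, stood at 2626, 2121 and 2164 in wild type, 1109, 1085 and 1014 across Ctnnb1 tumours and 2830, 3107 and 1252 in combined tumours. It fell by 1.10 in the Ctnnb1 group (adjusted p = 0.0139), which was not called with equal totals (-0.62, adjusted p = 0.0911). In the combined group libraries 10 and 11 were above wild type and library 12 below, and the change was -0.04, or 0.37 without library 12 (adjusted p = 0.0187). The 10 endothelial markers ran alongside, at 12636, 14237 and 7567 in the combined group, 5317 to 6837 in wild type and 6764 to 7154 in the Ctnnb1 group. Hif1a had the same order as these sums in the combined libraries, with library 12 the lowest for both. The part of endothelial cells in the Epas1 and Hif1a values was not tested.

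The hydroxylase Egln3 (chr12:54178981-54203860, minus strand) stood at 263, 223 and 189 in wild type, 949, 601 and 636 across Ctnnb1 tumours and 1610, 2917 and 4996 in combined tumours. It rose 3.19-fold (log2 1.67, adjusted p = 0.00547) and 12.8-fold (log2 3.68, SE 0.38, adjusted p = 0.000112), with no overlap in either. Egln1, the main oxygen sensor of the family, stood at 2712, 2648 and 2419 in wild type, 2155, 2109 and 1877 across Ctnnb1 tumours and 2330, 4804 and 3617 in combined tumours, and was not called in either. With only the compared groups in the fit it was called lower in the Ctnnb1 group (-0.34, adjusted p = 0.00841), and with equal totals its change there was 0.14. Without combined library 10 it was called higher (0.69, adjusted p = 0.00382).

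All 7 other HIF-type targets rose in the combined group, where 28.3% of all genes were called higher, and 4 of the 7 in the Ctnnb1 group, where 28.9% were. Car9 (chr4:43506966-43513729, plus strand), a cell-surface carbonic anhydrase much used as a hypoxia marker, stood at 39, 31 and 40 in wild type, 30, 12 and 56 across Ctnnb1 tumours and 356, 941 and 708 in combined tumours. It had the largest rise of the 35 genes in the combined group, 16.6-fold (log2 4.05, SE 0.55, adjusted p = 0.000454). The Ctnnb1 libraries straddled wild type (-0.40, adjusted p = 0.554, and 0.07 with equal totals). Ankrd37 stood at 31, 43 and 65 in wild type, 347, 336 and 222 across Ctnnb1 tumours and 308, 693 and 819 in combined tumours. It rose 6.55-fold in the Ctnnb1 group (log2 2.71, SE 0.41, adjusted p = 0.000804) and 12.4-fold in the combined group (log2 3.63, adjusted p = 0.000188). The antisense genes Ufsp2 and Lrp2bp overlap exons of Ankrd37, and the strand setting of the counting is not given in the sources used here, so their reads cannot be told apart. In all, 11 of the 35 genes have an antisense gene over an exon. The others are Car9, Hif1a, Bnip3, Ndrg1, Slc2a1, Gpi1, Pfkm, Pfkp, Aldoa and Tpi1, and the same limit holds for them. A same-strand gene lies over an exon of 2 genes, Pkm and Hif1a.

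Vegfa, the main growth factor of blood vessels, stood at 2986, 2865 and 2959 in wild type, 6018, 6266 and 5209 across Ctnnb1 tumours and 6323, 9543 and 12978 in combined tumours, and rose by 0.99 and 1.65. Bnip3, which marks mitochondria for removal, stood at 2034, 1888 and 2033, then 3096, 4206 and 2960, then 4525, 9095 and 10067. Ndrg1, a stress-response gene, stood at 1056, 1070 and 1337, then 1787, 2031 and 1887, then 2881, 5930 and 5815. These 3 genes had no overlap with wild type in either tumour group. Bnip3 (1.91) and Ndrg1 (2.01) rose in the combined group. Their calls in the Ctnnb1 group (0.77, adjusted p = 0.0428, and 0.73, adjusted p = 0.0384) were close to the threshold. Bnip3 was not called without any of the 6 libraries (adjusted p of 0.0598 to 0.129), nor Ndrg1 without any but wild-type library 3 (adjusted p of 0.0706 to 0.105). Adm, the vessel-dilating peptide adrenomedullin, stood at 163, 183 and 136 in wild type, 144, 122 and 135 across Ctnnb1 tumours and 297, 880 and 960 in combined tumours. P4ha1, a prolyl hydroxylase of collagen, stood at 984, 1229 and 1252, then 1317, 1786 and 1163, then 2359, 3620 and 3233. Adm (1.98, adjusted p = 0.00352) and P4ha1 (1.40, adjusted p = 0.00063) rose in the combined group, and neither was called in the Ctnnb1 group (-0.26 and 0.28, or 0.23 and 0.77 with equal totals, P4ha1 then called).

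**Figure D3:**
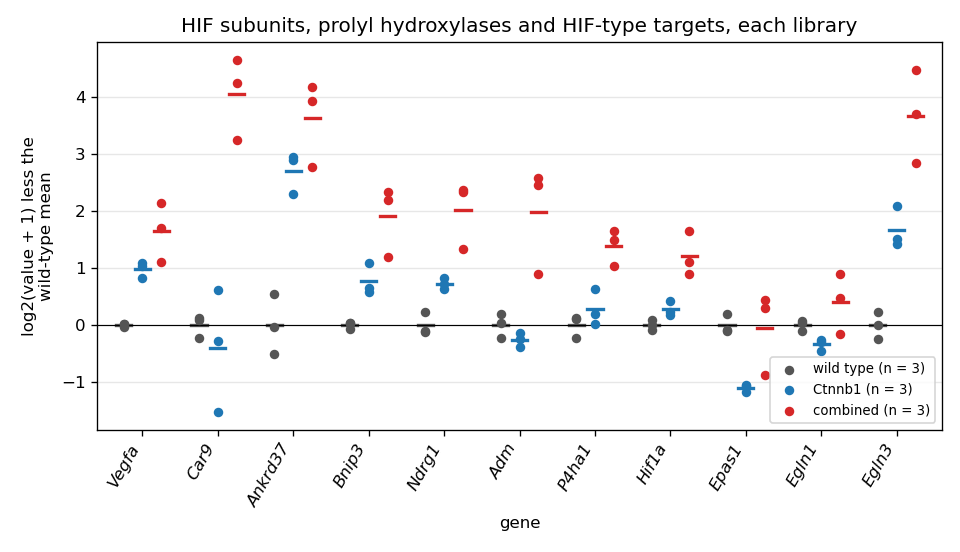
HIF alpha subunits, prolyl hydroxylases and 7 other HIF-type targets in each library of the genotype files, as log2(value + 1) less the wild-type mean of the gene (y axis). Points are libraries and short bars are group means. Car9 and Adm lie at wild-type level in the Ctnnb1 group and above it in the combined group, while Ankrd37 and Egln3 lie above wild type in both.

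Within the combined group, library 10 was the lowest for 31 of the 35 genes, as it was for 31.8% of all genes. Library 12 was the highest for 22 of the 35, beside 42.9% of all genes. The median of the 11 genes of the hypoxia side, against the wild-type mean, was 1.12 in library 10, 2.34 in library 12 and between these in library 11, and that of the 17 enzymes was 0.52, 1.02 and 1.41. Medians of all genes were between -0.02 and -0.01 in these libraries. Macrophage markers summed to 31747, 28775 and 9090 in the same libraries, to 7953 to 11056 in the Ctnnb1 group and to 3402 to 4235 in wild type. Hif1a and Epas1 were also lowest in library 12. The part of macrophages in the rises was not tested. Ctnnb1 libraries had hypoxia-side medians of 0.22, 0.64 and 0.58 and enzyme medians of 0.31, 0.33 and 0.25, lower than in any combined library.

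Ratios of paired genes within a library do not depend on its scaling. Of 11 pairs fixed for this, 7 did not overlap between the Ctnnb1 group and wild type and 8 did not between the combined group and wild type. Among all single genes, 71.5% and 66.1% did not overlap in these comparisons. No share was computed over other pairs, so the counts are not read as a result. Exact two-sided permutation tests of 3 against 3 libraries cannot go below p = 0.1. Each pair without overlap reached it (adjusted p = 0.157 and 0.138 over the 11 pairs), so the values are the result. The log2 ratio of Hk2 to Hk1 was -0.53, -1.07 and -1.21 in wild type, -1.92, -2.23 and -2.19 across Ctnnb1 tumours and -0.89, -1.06 and -0.47 in combined tumours, which overlapped wild type. Hif1a to Epas1 was -0.03, 0.36 and 0.42 in wild type, 1.52, 1.51 and 1.85 across Ctnnb1 tumours and 1.06, 1.46 and 2.02 in combined tumours, higher in both. Egln3 to Egln1 was -3.36, -3.56 and -3.67 in wild type, -1.18, -1.81 and -1.56 across Ctnnb1 tumours and -0.53, -0.72 and 0.47 in combined tumours. Eno1 to Eno2, Ldha to Ldhb, Pfkp to Pfkm and Pfkl to Pfkm were also higher in every library of both tumour groups than in any of wild type, and Slc16a3 to Slc16a1 and Pdk1 to Pdk3 in every combined library.

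**Figure D4:**
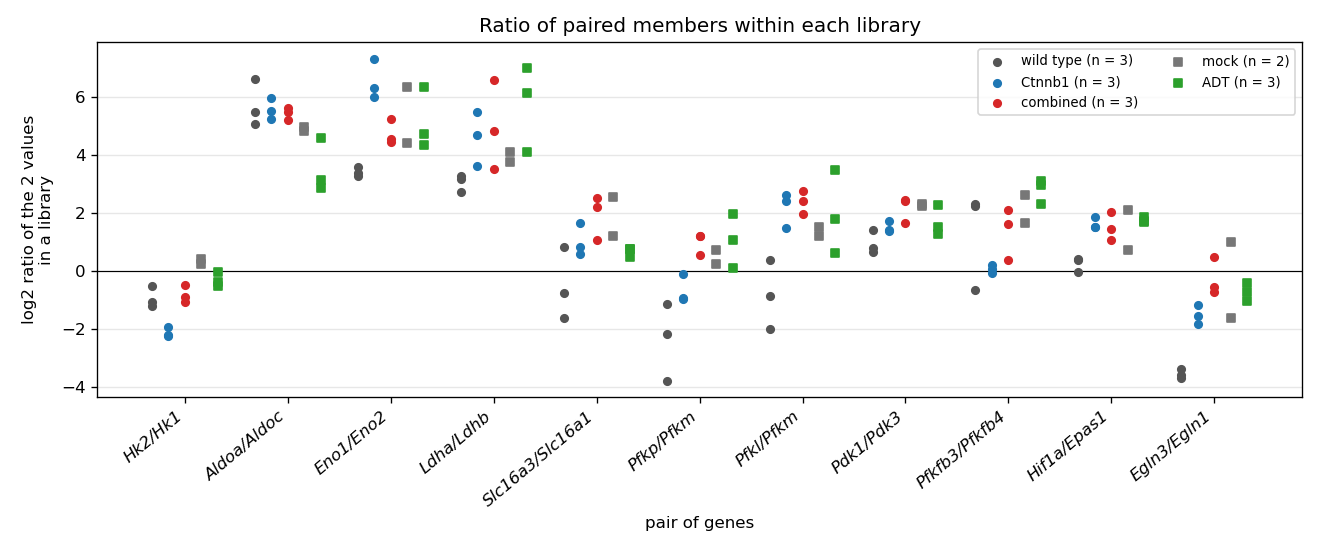
Log2 ratio of the values of 2 genes in the same library (y axis) for 11 pairs, with circles for the genotype files and squares for the inducible model. In the genotype files, Egln3 to Egln1 is near -3.5 in wild type and above -2 in all tumour libraries. Hk2 to Hk1 is lowest there in the Ctnnb1 group. The inducible model is read apart.

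Other genes of these pathways were taken from lists. Their counts stand beside 28.9% of all genes called higher and 29.6% lower in Ctnnb1 tumours, and 28.3% and 29.5% in combined ones. Equal totals gave the lists more higher or fewer lower calls, while the split of all genes moved as given above. Of 16 further glycolysis genes tested, 5 were called higher and 7 lower in Ctnnb1 tumours, and 3 and 9 in combined ones. With equal totals these counts were 6 and 3, then 5 and 6. Pklr, the pyruvate kinase of liver and red cells, stood at 0, 0 and 1 in wild type, 34, 18 and 34 across Ctnnb1 tumours and 42, 168 and 85 in combined tumours. Ldhd, a D-lactate dehydrogenase, rose by 2.05 and 2.42, while Slc2a4, the insulin-responsive glucose carrier of muscle and fat, fell in both (-4.86 and -4.07). Bpgm stood at 4838, 2323 and 7426 in wild type, 451, 401 and 523 across Ctnnb1 tumours and 818, 828 and 701 in combined tumours. Its change in Ctnnb1 tumours was -3.26 (limma, adjusted p = 0.000164). A list of 7 genes held the mitochondrial pyruvate carriers and the pyruvate dehydrogenase complex. Of these, 2 were higher and 3 lower in Ctnnb1 tumours, and 0 and 2 in combined ones. The latter were the pyruvate carriers Mpc1 (-0.67) and Mpc2 (-0.64), neither of them called lower with equal totals. That setting gave 4 higher and 0 lower in Ctnnb1 tumours, and 5 and 0 in combined ones. Of 6 gluconeogenesis genes, 2 were higher in each tumour group and 2 and 3 lower. With equal totals 3 and 2 were higher and 0 and 1 lower. Fbp1, which runs the phosphofructokinase step backwards, rose by 3.87 (adjusted p = 1.98e-05) and 3.30 (adjusted p = 3.07e-05). In the pentose phosphate and glycogen list, 3 and 4 of 13 were higher and 5 and 5 lower. With equal totals 6 and 7 were higher and 3 and 1 lower. The transaldolase Taldo1 fell in both (-0.75 and -0.36, the latter not called with equal totals), while the transketolase Tkt rose by 0.55 and 0.89.

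Among 30 further HIF-type targets, 13 were called higher and 4 lower in Ctnnb1 tumours, and 19 and 3 in combined ones, beside the same shares of all genes (28.9% and 29.6%, then 28.3% and 29.5%). With equal totals these counts were 17 and 2, then 25 and 0. Tfrc, the transferrin receptor, rose by 1.86 and 2.25, the cytokine Mif by 1.24 and 1.98, and the chemokine receptor Cxcr4 by 2.03 and 2.78. Of 9 further genes of the HIF pathway, 1 was higher and 5 lower in Ctnnb1 tumours, and 2 and 6 in combined ones, to be read against the same shares. Here equal totals gave 4 higher and 3 lower, then 3 and 3. Cited2, which competes with HIF for a coactivator, fell in both (-2.39 and -2.27). Siah2, a ligase that turns over prolyl hydroxylases, fell in both (-1.69 and -0.91), as did Hif3a (-2.74 and -3.14). Arnt2 was the 1 gene of this list called higher in Ctnnb1 tumours, by 2.72 (limma, adjusted p = 0.00122).

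Androgen deprivation in the inducible model left the set without a call. None of the 35 genes passed limma's test with Benjamini-Hochberg adjustment, against 0.00859% of 23289 genes tested, which is 2 genes, Pycr1 and Tubb4a. At an unadjusted p under 0.05 there were 2 genes higher and 1 lower of the 35, and 3779 of all genes. The groups did not overlap for 4 genes higher in ADT, against 16.4% of all genes, and for 3 lower, against 16.8%. With 2 mock libraries the test had little to measure the spread from, and a missed threshold does not show that levels were alike.

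Slc16a1 had the largest difference, at 601 and 441 in mock and 3699, 1419 and 1639 in ADT (log2 1.99, SE 0.48, adjusted p = 0.187). Aldoc stood at 775 and 800 in mock and 1059, 2054 and 2938 in ADT, and Ldhb at 1394 and 2017 against 264, 1064 and 308. These were the 3 genes with an unadjusted p under 0.05, at 1.24 for Aldoc and -1.92 for Ldhb. Pkm (38210 and 47841 against 65345, 49589 and 60779) and Egln1 (2766 and 2787 against 4098, 3025 and 3462) were also higher in every ADT library. Pdk1 was lower in every ADT library, at 3413 and 3649 in mock and 2969, 1519 and 1858 in ADT, and so was Pdk3, at 724 and 737 against 609, 631 and 646. The ratio of Slc16a3 to Slc16a1 was 1.22 and 2.54 in mock and 0.48, 0.77 and 0.75 in ADT (exact permutation p = 0.1, the lowest that 3 against 2 libraries allow, adjusted p = 0.55). Of the 11 pairs, 3 did not overlap, all lower in ADT, beside 33.2% of all single genes. No share was computed over other pairs. The others were Hk2 to Hk1 (0.25 and 0.40, then -0.53, -0.38 and -0.04) and Aldoa to Aldoc (4.83 and 4.94, then 4.57, 2.84 and 3.14).

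The libraries of each treatment also differed from each other. ADT library 2 was the lowest of its group for 26 of the 35 genes, beside 28.3% of all genes, and ADT library 1 the highest for 27, beside 34.1%. Mock library 2 was above mock library 1 for 28 of the 35, beside 51.7% of all genes. Egln3 stood at 911 and 5512 in the mock libraries and at 2026, 1847 and 2577 in ADT. Car9 stood at 464 and 824 in mock and 1274, 393 and 355 in ADT. Pfkm stood at 1454 and 2059 in mock and 1621, 425 and 2183 in ADT, in the order of the skeletal muscle sums within each group (11847 and 36909, then 2642, 401 and 56069). Mock library 1 had the highest endothelial sum (34623, the other 4 libraries 11772 to 13896) and the highest Epas1 (4702, the others 1968 to 2720). Epithelial markers summed to 80059 and 109799 in mock and 48658, 80106 and 63410 in ADT. Epcam, named after its values were seen, stood at 10052 and 10302 in mock and 2661, 4989 and 1947 in ADT. Cdh1 and Krt8, named likewise, were also lower in every ADT library, and none of these genes was called. Krt18, of the same list, overlapped, at 19159 and 23474 in mock and 14439, 19412 and 17147 in ADT, as did the epithelial sums. Krt5 and Krt14, the rest of the list, are given only within the sums. What the named genes leave of the sums was smallest in mock library 1 and largest in ADT library 2. A fall of the whole list is thus not shown. The part of these markers in the differences between mock and ADT, Slc16a1 included, was not tested.

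**Figure D5:**
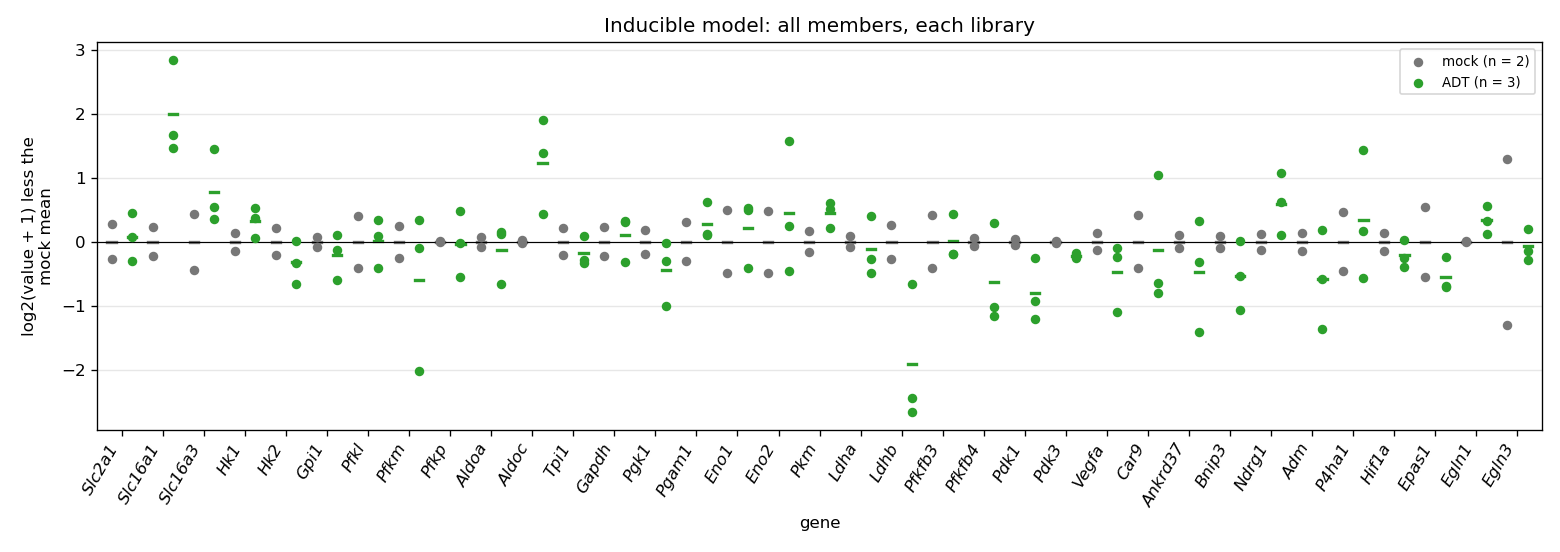
All 35 genes in the inducible model, as log2(value + 1) less the mock mean of the gene (y axis), with 2 mock and 3 ADT libraries as points and short bars as group means. Slc16a1 and Aldoc lie above mock in all 3 ADT libraries, and most other genes overlap.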

How the data were processed

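RNA of 17 samples had been sequenced, per the labels' protocols. The deposited values are scores: rounded gene counts after a scaling of each library by the authors, a reading taken from the values, since wild-type libraries lack 12 to 14 of 60 low whole numbers. The submitters' processing notes name, without role, the build GRCm38.p3, HTSeq 0.6.0, DESeq2 1.14.1, TopHat2 2.1.0 and Bowtie2 2.2.6.0. Sequencing depth is therefore unknown, and no counting interval is given.

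Genes were tested with limma 3.58.1 (R 4.3.3) with a trend on log2(value + 1), over 9 libraries of the genotype files and 5 of the inducible model, with Benjamini-Hochberg adjustment over all genes tested and calls at an adjusted p under 0.05. Folds are on that scale and understate changes of low genes. A gene was tested with a value of at least 1 in 3 of the 9 or 2 of the 5 libraries. Where 2 rows carried a gene's number, the row with the higher mean was kept. The test was checked on simulated data. Ratios were compared with exact two-sided permutation tests. Groups follow the labels. Levels per kilobase used merged exons of GENCODE, and gene spans are from GENCODE too. Tables were read with Python 3.11.15 and pandas 2.3.3.

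The genes, 6 further gene lists and 9 marker lists were chosen with earlier results of these data known. Values are given for every called gene, and from each further list up to 4 genes with the smallest p in a comparison were named. Alternatives changed the pseudocount, filter, scaling, prior variance, libraries in the fit and the handling of repeated rows, and added a replicate block. A further genotype group and 1 luminal marker are not reported here.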

Additional observations from a re-analysis of the deposited data

Results flagged for a closer look

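Hk2 moved in opposite directions in the tumour groups, with a log2 change of -0.71 in the Ctnnb1 group and 0.94 in the combined group. Every Ctnnb1 library was below every wild-type library and every combined library above every wild-type library. The difference between the groups was not tested. The call in the Ctnnb1 group was lost without wild-type library 1 or 2 or Ctnnb1 library 14 or 15, with adjusted p (limma) of 0.0632 to 0.138. Wild-type Hk2 (1950, 1326 and 1250) ran in the order of the skeletal muscle marker sums (170590, 48964 and 10440). In the Ctnnb1 group Hk2 was highest in library 13 and the muscle sum in library 15. The part of muscle tissue in the result was not tested.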

How the results depend on the processing

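Depth is not known, groups have 2 or 3 libraries, and wild-type totals exceed those of the tumours. Of the calls, 11 of 18 in the Ctnnb1 group and 25 of 27 in the combined group held in every setting tried, Slc2a1 and Pfkm being the exceptions in the latter. With equal totals the Ctnnb1 group had 20 genes of the set called higher and 3 lower, and the combined group 1 lower. Leaving out a library gave 9 to 12 higher and 3 to 7 lower in the Ctnnb1 group (6751 to 7385 of all genes called) and 24 to 28 higher and 2 to 3 lower in the combined group (6712 to 8198). With only the compared groups in the fit, Slc2a1, Gpi1, Tpi1, Ldhb, Egln1 and Hif1a were called in the Ctnnb1 group as well, and Slc2a1 was not called in the combined group (limma, adjusted p = 0.0739). Causes of these changes were not tested.

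In the Ctnnb1 group, equal totals turned the sign of Slc2a1 (0.14), Pfkp (0.12), Aldoa (0.31), Aldoc (0.46), Car9 (0.073), Egln1 (0.14) and Adm (0.23), none of them called, and leaving out the 10 highest genes first turned Aldoc (0.13). Leaving out a library gave Aldoa -0.45 to 0.19, Aldoc -0.15 to 0.17, Pdk1 -0.0072 to 0.093, Slc16a1 -0.074 to 0.19 and Car9 -0.90 to 0.17. In the combined group, equal totals turned Pdk3 (0.20) and Epas1 (0.47, or 0.12 without the 10 highest genes), and leaving out a library gave Epas1 -0.28 to 0.37.

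For ADT against mock, limma called 5 genes of all with a pseudocount of 10, 60 with a mean value of at least 50, 48 with equal totals, 49 with the 10 highest genes left out of the totals, 46 with equal upper quartiles, 29 with a robust prior and 0 with no trend (3507 at an unadjusted p under 0.05). Leaving out any library gave 0 to 0 called genes, with 2334 to 3979 at an unadjusted p under 0.05. Titles share replicate numbers 1 and 2, and the differences between these numbers correlated across 23289 genes at r = 0.20 in mock and ADT. With only 2 shared numbers they were not taken to pair the libraries. With the replicate block 0 genes were called (3206 at an unadjusted p under 0.05), Slc2a1 was -0.12 and Car9 0.19. Equal totals, equal totals without the 10 highest genes and equal upper quartiles gave Pfkl -0.038, -0.026 and -0.022 and Pfkfb3 -0.027, -0.015 and -0.011. Leaving out a library gave Slc2a1 -0.20 to 0.35, Pfkl -0.40 to 0.41, Pfkm -1.06 to 0.12, Pfkp -0.29 to 0.23, Aldoa -0.27 to 0.14, Tpi1 -0.39 to 0.041, Gapdh -0.12 to 0.33, Pgam1 -0.024 to 0.59, Eno1 -0.28 to 0.70, Eno2 -0.11 to 0.94, Ldha -0.37 to 0.070, Pfkfb3 -0.40 to 0.43, Car9 -0.73 to 0.28, Egln3 -1.37 to 1.22 and P4ha1 -0.20 to 0.81. Summing repeated rows, chosen after seeing the data, gave Eno1 1.54 (Ctnnb1 group) and 2.30 (combined group) and Gapdh 0.48 and 1.32.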

Other observations

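The genotype files carry a second row with the number of Eno1, which was not used above. It stood at 312, 315 and 346 in wild type, 6, 3 and 4 across Ctnnb1 tumours and 1116, 1819 and 1753 in combined tumours. In the inducible model the second row of Eno1 stood at 1669 and 8 in the mock libraries and at 1232, 3 and 1688 in ADT, so libraries of 1 group differed widely. A second row of Gapdh stood at 1, 1 and 1 in wild type, 171, 139 and 3 across Ctnnb1 tumours and 254, 420 and 332 in combined tumours.

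By limma with Benjamini-Hochberg adjustment, macrophage markers were called higher for 8 of 10 in the Ctnnb1 group and 9 of 10 in the combined group. Endothelial markers had 2 higher and 1 lower, and 7 higher and 0 lower, of 10. Neutrophil markers had 3 and 4 of 5 called higher, red blood cell markers 2 and 0 of 3 called lower, and adipocyte markers 0 of 5 called in either. Smooth muscle markers were lower for 10 of 10 in both groups, skeletal muscle markers for 9 of 10 in both, and prostate luminal markers for 5 of 5 in both. Epithelial markers had 1 higher and 1 lower, and 2 higher and 1 lower, of 6. These counts stand beside 28.9% of all genes called higher and 29.6% lower in the Ctnnb1 group. In the combined group the shares were 28.3% and 29.5%. No marker of any list was called for ADT against mock.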
